A study of Mus musculus with 8 samples.

Results

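The 9 genes described here encode receptors for cytokines and growth factors that act on blood-forming cells. They are Kit, Epor, Csf1r, Csf2ra, Csf2rb, Csf3r, Il6ra, Ifngr1 and Tnfrsf1a, chosen by name for their ligands' roles in hematopoiesis, and they are 9 of the 27998 genes in the count table. The study asked how housing alters hematopoietic cells of the mouse, and profiled single bone marrow cells that lacked lineage markers and carried CD117 (KL cells), the protein product of Kit. Inbred C57BL/6 (B6) female mice aged 3 to 4 months stayed in a specific-pathogen-free facility (SPF) or were moved from it to a conventional facility and housed there for 1 month with conventionally bred (CVB) mice (CVT), with 10 mice per group by the numbers in the sample titles, a number on which the sources differ. Cells of 2 or 3 mice were pooled into each 10x Genomics 3′ library, which gave 4 SPF pools (1, 2, 7 and 8) and 4 CVT pools (3 to 6). The pool was the replicate, so p-values measure the spread between pools and not between single mice.

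These receptors read out the signals that set how many blood cells of each type are made. Kit and Csf1r are receptor tyrosine kinases for stem cell factor and for the macrophage growth factors, Epor, Csf3r, Csf2ra, Csf2rb and Il6ra belong to the class of cytokine receptors that signal through JAK kinases and STAT factors, Ifngr1 binds interferon gamma, and Tnfrsf1a is a death-domain receptor for tumor necrosis factor. In bone marrow, stem and progenitor cells acquire and lose such receptors as they commit to a lineage, so that erythropoietin acts mainly on erythroid precursors and the colony-stimulating factors mainly on myeloid cells.

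The table held 29891 cells, 17560 from CVT and 12331 from SPF mice, counted in unique molecular identifiers (UMIs, each a captured transcript). Total UMIs were 19041749, 43194400, 19814800 and 49911524 in SPF pools 1, 2, 7 and 8, and 57567699, 59812346, 41901551 and 44600182 in CVT pools 3, 4, 5 and 6. Pools 1 and 7 had the fewest UMIs and the fewest cells, 1888 and 2064. Of 29365 distinct cell barcodes, 518 occurred in 2 pools and 4 in 3 pools, and these cells were kept. Pools 1 to 4 came from mice numbered 1 to 10 and pools 5 to 8 from mice numbered 11 to 20, and these pool sets, each with 2 pools per housing group, differed widely in expression, as described after the housing results.

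Cells were grouped into 34 clusters by expression of other genes, with the receptors and related receptor lists left out of the clustering, and 31 clusters were named from marker genes. The named states, each called by what its markers resemble, were long-term stem cells (LTHSC-like), multipotent progenitors (MPP-like), lymphoid-primed progenitors (LMPP-like), common myeloid progenitors (CMP-like), megakaryocyte progenitors (MkP-like), erythroid (Ery-like), basophil and mast (BaMast-like), granulocyte-monocyte progenitors (GMP-like), neutrophil progenitors (NeuP-like), granulocytes (Granulocyte-like), monocytes (Mono-like), dendritic, B and T or NK cells. The CMP-like name rests on Gata2, Apoe and Muc13, and the GMP-like cluster held as many monocyte as GMP markers, 3 of each, among its 10 leading genes, while both NeuP-like clusters held as many GMP as NeuP markers. Such ties also occurred in both MPP-like clusters (6 with CMP and 17 with LMPP markers), LMPP-like cluster 10 (with LTHSC markers) and CMP-like cluster 26 (with MkP markers). 5.31% of the cells, sorted as lacking lineage markers, were Granulocyte-like, with S100a8 among the leading genes of each of their clusters, and in these cells 16.8% had a Kit UMI against 51.0% of all cells, at median depths of 6984 and 8964 UMIs. The 79 dendritic-like, 168 B-like and 49 T or NK-like cells were too few in some pools for a housing test, and 3 clusters stayed unnamed.

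All 9 receptors were detected, from 4423 UMIs for Il6ra to 52849 for Ifngr1 over all KL cells. Levels below (CPM) are a gene's UMIs in a state and pool, scaled to a common total of UMIs, as mean ± SD over 8 pools, and each gene is compared only with its own levels because 3′ counts differ in capture between genes. The ratio of the highest to the lowest of the 11 states with enough cells was 70.7 for Epor, 54.0 for Csf2rb, 49.7 for Csf1r, 49.2 for Il6ra and 43.2 for Csf3r, while it was 8.93 for Tnfrsf1a, 7.32 for Csf2ra, 6.04 for Kit and 4.89 for Ifngr1. The first 5 receptors thus had the wider ranges over states, though Csf2rb and Csf3r were not limited to few of them, as given below. Their lowest levels were small and varied between pools, such as 1.17 ± 0.861 CPM for Epor and 0.884 ± 0.624 for Csf2rb. The order of the ratios among these 5 is therefore uncertain. Levels in states are a description with no test, and the map of receptor levels by state shows them together.

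**Figure D1:**
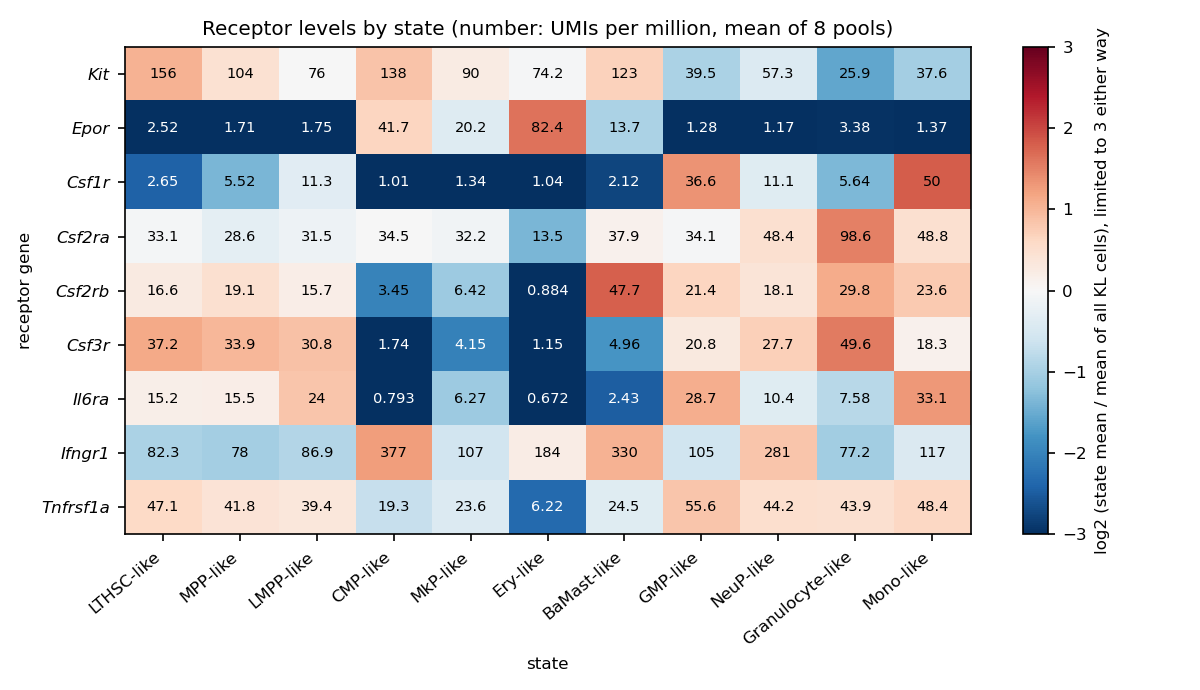
Mean CPM of each receptor (vertical axis) in each of 11 states (horizontal axis) over 8 pools, printed in each box, with color for the log2 ratio to the receptor's mean in all KL cells, limited to 3 either way. Epor stands out in Ery-like cells at 82.4 CPM, and Csf1r and Il6ra share a maximum in Mono-like cells.

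Promoters of 7 of the 9 receptors, all but Csf1r and Csf2rb, were in the RefSeq table of 27025 mouse promoters (GRCm38.p6, 300 bases around the annotated start, written 5′ to 3′ on the gene's strand). Those of Epor, Il6ra and Csf3r are shown because these 3 genes had the widest range over states among the 7, and that of Csf2ra because it holds a motif in tandem. Capitals mark motif matches in either orientation. The GATA motif, AGATAA with T also allowed as its first base, occurs in 18.9% of all promoters in the table, and the PU.1 motif GAGGAA occurs in 28.3%. The RUNX motif TGTGGT occurs in 16.9% of them, and the C/EBP motif TTNNGNAA, where N is any base, in 40.7%. The STAT motif TTCNNNGAA is found in 8.47% of the promoters and the SP1 motif GGGCGG in 35.9%. The Epor promoter (chr9:21963527-21963826, minus strand) holds a GATA match 54 bases before the start, with RUNX and SP1 matches. The Csf3r promoter (chr4:126024409-126024708, plus strand) holds a PU.1 match 86 bases before the start and no other motif searched, and that of Csf2ra (chr19:61228369-61228668, minus strand) holds 2 PU.1 matches side by side, a C/EBP match and an SP1 match. In the Il6ra promoter (chr3:89913147-89913446, minus strand) there are matches to GATA, PU.1 and C/EBP, the last at 2 places, and the PU.1 match lies inside the C/EBP match nearer the start, within bases 181 to 188 counted from the first base printed. Of the promoters not printed, Kit (chr5:75574737-75575036, plus strand, the first of 2 starts listed) holds PU.1 and SP1 matches, Ifngr1 (chr10:19591699-19591998, plus strand) 2 SP1 matches and Tnfrsf1a (chr6:125349473-125349772, plus strand) a STAT match. A match describes letters only, and binding was not measured.
Epor: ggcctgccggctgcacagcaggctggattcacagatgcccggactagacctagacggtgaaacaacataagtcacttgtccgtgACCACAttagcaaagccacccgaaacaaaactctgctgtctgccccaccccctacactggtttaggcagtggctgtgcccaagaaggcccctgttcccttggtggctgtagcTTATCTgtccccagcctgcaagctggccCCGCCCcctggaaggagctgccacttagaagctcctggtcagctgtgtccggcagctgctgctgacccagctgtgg
Csf3r: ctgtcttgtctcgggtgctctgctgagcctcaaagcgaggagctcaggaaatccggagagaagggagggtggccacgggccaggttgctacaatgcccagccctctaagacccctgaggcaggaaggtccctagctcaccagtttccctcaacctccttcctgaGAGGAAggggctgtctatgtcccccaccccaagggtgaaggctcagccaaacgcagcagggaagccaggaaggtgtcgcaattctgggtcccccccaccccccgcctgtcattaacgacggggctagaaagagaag
Csf2ra: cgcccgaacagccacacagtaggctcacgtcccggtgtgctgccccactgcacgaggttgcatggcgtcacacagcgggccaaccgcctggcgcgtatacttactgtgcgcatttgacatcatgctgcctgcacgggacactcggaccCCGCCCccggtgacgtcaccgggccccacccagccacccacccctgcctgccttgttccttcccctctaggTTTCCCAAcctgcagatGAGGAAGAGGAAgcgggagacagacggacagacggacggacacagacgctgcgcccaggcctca
Il6ra: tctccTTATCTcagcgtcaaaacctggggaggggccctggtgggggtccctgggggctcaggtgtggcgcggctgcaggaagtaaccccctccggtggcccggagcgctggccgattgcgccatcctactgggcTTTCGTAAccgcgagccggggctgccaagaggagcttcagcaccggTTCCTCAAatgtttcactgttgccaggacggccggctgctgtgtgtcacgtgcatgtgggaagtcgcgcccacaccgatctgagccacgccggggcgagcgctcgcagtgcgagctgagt

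Kit, the receptor for stem cell factor, was the gene behind the sort, so its presence in these cells is not a finding and only its range within them is described. It was highest in LTHSC-like cells at 156 ± 35.6 CPM (SD, n = 8 pools), followed by CMP-like (138 ± 18.5), BaMast-like (123 ± 18.8), MPP-like (104 ± 15.6) and MkP-like cells (90.0 ± 9.95). It was lower in LMPP-like (76.0 ± 12.3), Ery-like (74.2 ± 11.1), NeuP-like (57.3 ± 8.49), GMP-like (39.5 ± 7.03), Mono-like (37.6 ± 4.47) and Granulocyte-like cells (25.9 ± 7.12). CMP-like and BaMast-like, BaMast-like and MPP-like, LMPP-like and Ery-like, and GMP-like and Mono-like cells did not differ beyond the SD of their difference over pools. The lead of LTHSC-like over CMP-like cells barely exceeded its spread, and CMP-like cells led at resolution 1. Per cell, Kit was instead highest in Ery-like cells at 1.35 UMIs against 1.02 in LTHSC-like cells, whose median depths were 17930 and 6144 UMIs. With every cell thinned to the depth of the shallowest cell, 34.0% of LTHSC-like cells had a Kit UMI (59.3% unthinned). The share was 19.2% in Ery-like (67.2%) and 6.61% in Granulocyte-like cells (16.8%, median depth 6984). Granulocyte-like cells were taken as background, but they too were sorted for CD117 and their clusters differed in Kit, as given below. Within the erythroid clusters Kit was 98.7 ± 12.6 CPM in cluster 7, 55.7 ± 11.03 in cluster 8 and 15.1 ± 12.9 in cluster 30, which hemoglobin genes led (n = 6 pools with enough cells). Among granulocyte clusters it was 13.2 ± 8.37 in cluster 20 and 16.9 ± 6.93 in cluster 25 but 70.2 ± 16.9 in cluster 28 (n = 7 pools with enough cells), where Epor (12.7 ± 6.78) and Csf1r (14.6 ± 14.8) were also higher than in the other granulocyte clusters, and the reason was not tested. The genes whose levels tracked Kit most closely over 31 clusters were Def8 (Pearson r = 0.951), Zfp444 (0.921) and Fam208b (0.921) of 7797 genes, and here as for every receptor below the clusters share the same 8 libraries.

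Epor, the erythropoietin receptor, had the largest ratio of highest to lowest state of the 9, with the limit on that order given above. Its level was 82.4 CPM in Ery-like cells, 41.7 ± 4.64 in CMP-like, 20.2 ± 1.59 in MkP-like and 13.7 ± 5.16 in BaMast-like cells, each step beyond its spread. In Ery-like cells the SPF pools had 80.3 (pool 1), 85.3 (pool 2), 61.0 (pool 7) and 89.6 (pool 8) CPM, and the CVT pools 90.2 (pool 3), 96.3 (pool 4), 74.1 (pool 5) and 82.3 (pool 6). SPF pool 7 was the lowest and the groups overlapped. The remaining 7 states lay between 1.17 CPM in NeuP-like and 3.38 in Granulocyte-like cells, and of neighbors in that order only LTHSC-like (2.52 ± 1.10) and LMPP-like cells (1.75 ± 0.735) differed beyond their spread. After thinning, 18.3% of Ery-like and 10.8% of CMP-like cells had an Epor UMI (67.4% and 21.0% unthinned, median depths 17930 and 5386), against 0.630% of Granulocyte-like cells (2.39%, 6984), which should lack it. Ery-like cells held 78.8% of all Epor UMIs, and CMP-like cells 10.8%. Within the erythroid cells, Epor was 54.1 ± 5.48 CPM in cluster 7, which still had Apoe among its leading genes, 72.2 ± 7.67 in cluster 19, 72.5 ± 7.14 in cluster 16, 106 ± 15.2 in cluster 8 and 99.8 ± 37.2 in the hemoglobin cluster 30. Kit and Epor therefore ran in opposite directions over clusters 7 and 8. The closest genes over clusters were Aqp1 (r = 0.977), a water channel of red cells that was also among the erythroid markers, Abcb4 (0.973) and Klf1 (0.969), an erythroid transcription factor.

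Csf1r, the receptor for macrophage colony-stimulating factor and interleukin 34, marked the monocyte branch. It was 50.04 ± 8.39 CPM in Mono-like and 36.6 ± 8.96 in GMP-like cells, higher in the former in 8 of 8 pools. In Mono-like cells the SPF pools had 64.7 (pool 1), 43.4 (pool 2), 58.6 (pool 7) and 48.6 (pool 8) CPM and the CVT pools 44.2 (pool 3), 43.4 (pool 4), 55.0 (pool 5) and 42.5 (pool 6). SPF pools 1 and 7 and CVT pool 5 were the highest, and the groups overlapped. LMPP-like (11.3 ± 3.62) and NeuP-like cells (11.1 ± 3.25) followed and did not differ from each other, then Granulocyte-like (5.64 ± 5.31), MPP-like (5.52 ± 1.63) and LTHSC-like cells (2.65 ± 2.61), and the other 4 states lay at 2.12 CPM or below. From NeuP-like cells down, only the step from MPP-like to LTHSC-like cells exceeded its spread. Thinned shares of cells with a Csf1r UMI were 14.4% in Mono-like, 8.01% in GMP-like and 3.06% in LMPP-like cells (48.5%, 33.9% and 8.499% unthinned, median depths 15460, 13760 and 7466), against 0.252% in Ery-like cells (2.15%, 17930), the state taken as background. Mono-like cells held 68.6% of all Csf1r UMIs. They were not uniform: cluster 22, with Lgals3, Fn1 and the antigen-presentation genes Cd74 and H2-Aa among its leading genes, had 119 ± 33.6 CPM, and clusters 2, 15 and 4 had 48.8 ± 3.16, 42.1 ± 4.58 and 40.1 ± 9.12. The closest genes were Ccr2 (r = 0.976), a chemokine receptor of inflammatory monocytes, Hpse (0.976), which encodes heparanase, and Ly86 (0.965), a monocyte marker used for the names.

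Csf2ra encodes the ligand-binding chain for granulocyte-macrophage colony-stimulating factor (GM-CSF), and Csf2rb the common beta chain that it shares with the receptors for interleukin 3 and interleukin 5. Csf2ra was highest in Granulocyte-like cells at 98.6 ± 16.5 CPM, above Mono-like (48.8 ± 12.99) and NeuP-like cells (48.4 ± 7.63), and lowest in Ery-like cells (13.5 ± 2.21). In Granulocyte-like cells the SPF pools had 119 (pool 1), 123 (pool 2), 105 (pool 7) and 83.1 (pool 8) CPM and the CVT pools 92.4 (pool 3), 100.1 (pool 4), 77.8 (pool 5) and 87.8 (pool 6). SPF pools 1, 2 and 7 were above all CVT pools and SPF pool 8 was within them. The other 7 states ran from 37.9 CPM in BaMast-like to 28.6 in MPP-like cells with no step beyond its spread. Per cell the NeuP-like and Granulocyte-like values were close, 0.793 and 0.779 UMIs. Thinned shares with a Csf2ra UMI were 22.6% in Granulocyte-like and 8.72% in LTHSC-like cells (47.7% and 18.7% unthinned, median depths 6984 and 6144), against 4.39% in Ery-like cells (21.3%, 17930). The monocyte cluster 22 had 218 ± 19.6 CPM, above every granulocyte cluster. The closest genes were Wdr1 (r = 0.933) and Cotl1 (0.920), both regulators of actin filaments, and Ostf1 (0.922).

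The beta chain had another pattern, and its counts are uncertain because Csf2rb and its neighbor Csf2rb2 are near-identical copies. Of the 11 states, Csf2rb was highest in BaMast-like cells at 47.7 ± 15.2 CPM, then Granulocyte-like (29.8 ± 4.76) and Mono-like (23.6 ± 3.24), with 21.4 in GMP-like, 19.1 in MPP-like, 18.1 in NeuP-like, 16.6 in LTHSC-like and 15.7 in LMPP-like cells. No step from Mono-like to LMPP-like cells exceeded its spread. MkP-like (6.42 ± 2.58), CMP-like (3.45 ± 1.87) and Ery-like cells (0.884 ± 0.624) were lower, each beyond its spread. Thinned shares with a UMI were 10.8% in BaMast-like and 1.15% in CMP-like cells (25.0% and 1.87% unthinned, median depths 5840 and 5386), against 0.252% in Ery-like cells (1.56%, 17930). Per cell, Mono-like and BaMast-like cells were close, at 0.348 and 0.338 UMIs. The 79 dendritic-like cells had 90.5 ± 37.8 CPM. Csf2rb2, the beta chain specific to interleukin 3 in the mouse, was likewise highest among the 11 states in BaMast-like cells (11.1 ± 5.11) and at most 2.45 CPM in the other 10. Il3ra, the interleukin 3 alpha chain, was also highest of the 11 in BaMast-like cells (54.1 ± 9.94) and lowest in Ery-like cells (4.76 ± 0.850), whereas Il5ra, the interleukin 5 alpha chain, had 25 UMIs in all KL cells together. Among the 11 states the interleukin 3 chains thus shared a maximum that Csf2ra did not have, but in the dendritic-like cells Csf2rb2 (52.9 ± 31.9) and Il3ra (84.3 ± 88.0) were higher on average, as Csf2rb was. Genes closest to Csf2rb were Myo1f (r = 0.900), an unconventional myosin, Spi1 (0.896), which encodes the myeloid factor PU.1, and Anxa2 (0.889).

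Csf3r, the receptor for granulocyte colony-stimulating factor, was high at both ends of the myeloid path. It was 49.6 ± 7.90 CPM in Granulocyte-like cells and 37.2 ± 6.03 in LTHSC-like cells, higher in the former in 7 of 8 pools. In Granulocyte-like cells the SPF pools had 53.2 (pool 1), 44.9 (pool 2), 66.1 (pool 7) and 52.9 (pool 8) CPM and the CVT pools 43.8 (pool 3), 41.0 (pool 4), 48.5 (pool 5) and 46.7 (pool 6). SPF pool 7 was highest, and the groups overlapped over all 8 pools but not within either pool set. How many of all genes were apart in that way was not counted. From LTHSC-like cells the order went on with MPP-like (33.9 ± 4.91), LMPP-like (30.8 ± 8.04), NeuP-like (27.7 ± 5.92), GMP-like (20.8 ± 3.502) and Mono-like cells (18.3 ± 3.41) in steps that were each within their spread. A gap followed, beyond its spread, to BaMast-like (4.96 ± 3.38), MkP-like (4.15 ± 2.79), CMP-like (1.74 ± 0.985) and Ery-like cells (1.15 ± 0.564), among which only MkP-like and CMP-like cells differed beyond their spread. Thinned shares with a UMI were 13.3% in Granulocyte-like, 9.78% in LTHSC-like and 0.432% in CMP-like cells (31.0%, 21.0% and 1.01% unthinned, median depths 6984, 6144 and 5386), against 0.366% in Ery-like cells (1.85%, 17930), so the CMP-like value was near background. Among stem-like clusters, cluster 1 had 42.5 ± 6.82 CPM and cluster 13, which held more of the LTHSC markers (11 against 7 among its 100 leading genes), 23.8 ± 6.98. In the LMPP-like state the level differed between a cluster with Flt3 among its leading genes (cluster 5, 25.7 ± 5.80) and a cluster with Ly6a and interferon-induced genes (cluster 10, 39.8 ± 14.0). Levels closest to Csf3r over clusters were those of Rassf2 (r = 0.905), Lcp1 (0.900), an actin-bundling protein of leukocytes, and Fgd4 (0.893).

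Il6ra is the interleukin 6 binding chain and signals only together with gp130, the product of Il6st. It was 33.1 ± 5.93 CPM in Mono-like, 28.7 ± 5.55 in GMP-like and 24.0 ± 4.72 in LMPP-like cells, which did not differ as neighbors beyond their spread. In Mono-like cells the SPF pools had 44.2 (pool 1), 27.7 (pool 2), 37.5 (pool 7) and 35.0 (pool 8) CPM and the CVT pools 29.1 (pool 3), 25.9 (pool 4), 33.8 (pool 5) and 31.4 (pool 6), and these ranges overlapped although SPF pools 1, 7 and 8 were the highest of all. MPP-like (15.5 ± 1.80) and LTHSC-like cells (15.2 ± 1.44) had like levels, above NeuP-like (10.4 ± 1.99), Granulocyte-like (7.58 ± 1.40), MkP-like (6.27 ± 1.62) and BaMast-like cells (2.43 ± 2.12). CMP-like (0.793 ± 0.813) and Ery-like cells (0.672 ± 0.361) were at the bottom. Thinned shares were 9.17% in Mono-like and 4.46% in LTHSC-like cells (36.2% and 8.93% unthinned, median depths 15460 and 6144), against 0.160% in Ery-like cells (1.19%, 17930). Il6st had its highest level in Mono-like cells as well (32.4 ± 4.77), followed by GMP-like (23.5 ± 6.03) and LMPP-like cells (12.4 ± 2.54), and was 7.31 ± 1.81 in LTHSC-like and 0.785 ± 0.219 in Ery-like cells. Both chains thus had the same 3 of the 11 states highest. Within Mono-like cells Il6ra was 76.9 ± 22.4 CPM in cluster 22, against 31.5 ± 2.69, 27.2 ± 5.31 and 25.1 ± 4.84 in clusters 2, 4 and 15. In the megakaryocyte clusters Il6ra stood out in that led by Pf4 and Ppbp, with 12.8 ± 2.50 CPM in cluster 24 against 4.51 ± 1.68 in cluster 9 and 3.83 ± 2.24 in cluster 21. The nearest genes were Adam15 (r = 0.911), a membrane metalloprotease, Fgd2 (0.905) and Pkib (0.905), an inhibitor of protein kinase A.

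Ifngr1, the ligand-binding chain for interferon gamma, was detected in every state. The order was CMP-like at 377 ± 59.0 CPM, BaMast-like (330.1 ± 41.5), NeuP-like (281 ± 14.7), Ery-like (184 ± 17.4) and Mono-like cells (117 ± 11.7), each step beyond its spread. MkP-like (107 ± 22.2), GMP-like (105 ± 17.7), LMPP-like (86.9 ± 6.68), LTHSC-like (82.3 ± 11.4), MPP-like (78.0 ± 10.2) and Granulocyte-like cells (77.2 ± 13.9) came next, with no step beyond its spread. Which state led changed with the settings: it was BaMast-like with 2000 variable genes or after thinning and NeuP-like with 50 principal components, and per cell NeuP-like cells had 4.35 UMIs against 2.15 in CMP-like cells. No state could be assumed to lack Ifngr1, and thinned shares ran from 15.2% in Granulocyte-like to 62.0% in CMP-like cells (36.1% and 83.2% unthinned, median depths 6984 and 5386). Over the erythroid clusters Ifngr1 had the same order as Kit, with 255 ± 30.6 CPM in cluster 7, 209 ± 19.4 in cluster 19, 186 ± 20.9 in cluster 16, 141 ± 12.6 in cluster 8 and 27.2 ± 16.4 in the hemoglobin cluster 30. In the neutrophil path it was 213 ± 12.6 in cluster 12 and 391 ± 32.3 in cluster 23, which had Fcnb among its markers. The granulocyte clusters were lower, at 40.1 ± 10.9 in cluster 20, 81.9 ± 13.1 in cluster 25 and 129 ± 31.6 in cluster 28 (n = 7 pools). Ifngr2, the signal-transducing chain, was highest in GMP-like (46.2 ± 5.40) and Mono-like cells (45.6 ± 6.03) and only 7.42 ± 1.37 in CMP-like cells, so the maxima of the 2 chains lay in different states. Even the nearest genes, Xylt1 (r = 0.774), Fam46a (0.770) and Gna12 (0.735), tracked Ifngr1 less closely than the nearest genes of the other 8 receptors did theirs.

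Tnfrsf1a, the main death-domain receptor for tumor necrosis factor, was detected in all 11 states. It was 55.6 ± 9.36 CPM in GMP-like, 48.4 ± 5.35 in Mono-like, 47.1 ± 4.67 in LTHSC-like, 44.2 ± 4.24 in NeuP-like, 43.9 ± 7.71 in Granulocyte-like, 41.8 ± 6.59 in MPP-like and 39.4 ± 2.45 in LMPP-like cells, with no step beyond its spread. BaMast-like (24.5 ± 7.95), MkP-like (23.6 ± 1.71), CMP-like (19.3 ± 3.62) and Ery-like cells (6.22 ± 1.55) were lower. Mono-like cells took the lead from GMP-like cells at resolution 1, with 2000 variable genes and with the receptor genes kept in the clustering. Thinned shares with a UMI were 11.2% in LTHSC-like and 1.67% in Ery-like cells, the lowest of the 11 states (26.2% and 10.4% unthinned, median depths 6144 and 17930). Within Mono-like cells cluster 22 had 83.2 ± 20.04 CPM, against 42.8 to 49.5 in the other 3 clusters. Erythroid cluster 7 had 10.8 ± 2.74 CPM and cluster 8 2.39 ± 1.38, the same direction as Kit and Ifngr1. Tnfrsf1b, the other receptor for this ligand, was highest in NeuP-like (12.2 ± 1.96), Mono-like (11.2 ± 2.44) and LTHSC-like cells (10.3 ± 2.04) and lowest in Ery-like cells (1.75 ± 0.339). The nearest genes were Rab31 (r = 0.933), Hk2 (0.931), which encodes hexokinase 2, and Pstpip1 (0.928).

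**Figure D2:**
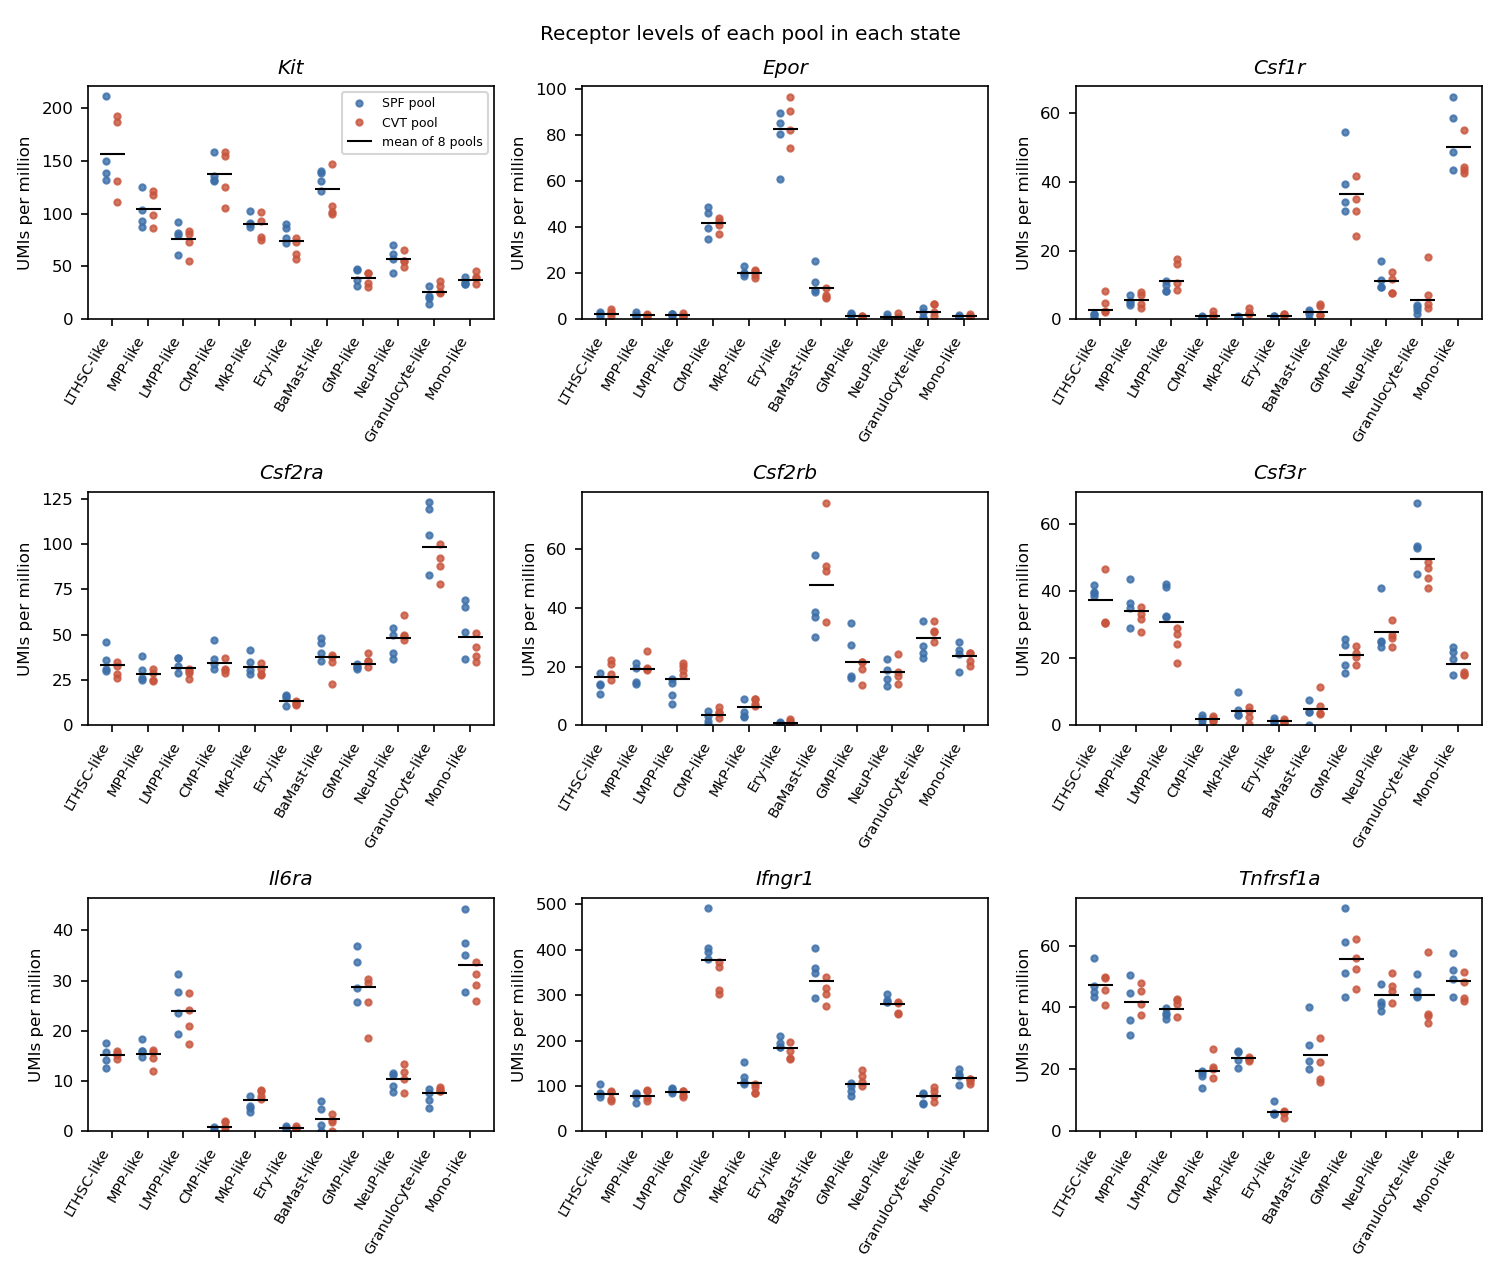
CPM of each receptor (vertical axis, linear from 0) in 11 states (horizontal axis), with a point for each of 4 SPF and 4 CVT pools and a line at the mean of 8 pools. Pools of both groups mostly overlap, and Csf2rb in LMPP-like cells runs from 7.44 to 21.3 CPM with the CVT pools above the SPF pools.

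Receptors were next compared with each other over clusters and within cells. Over 31 clusters the highest correlation between receptors was that of Csf1r and Il6ra (r = 0.853), and Csf2rb and Tnfrsf1a (0.809) came next. Epor and Tnfrsf1a had the lowest (-0.833), and Epor was also negatively related to Csf2rb (-0.782) and Csf3r (-0.781). Epor thus ran opposite to these 3 receptors, and less so to Csf1r (-0.493). Kit was most related to Ifngr1 (0.480), and had its lowest value with Csf1r (-0.393). In single cells, 32.9% of KL cells with a Csf1r UMI also had an Il6ra UMI, against 9.39% of those without. The shares were 23.4% and 8.69% in LTHSC-like, 22.1% and 11.5% in MPP-like and 38.7% and 33.9% in Mono-like cells, where 47, 104 and 2211 cells had a Csf1r UMI. In CMP-like cells 0 of 28 cells with a Csf1r UMI had an Il6ra UMI, against 0.483% of the rest, which is too few cells to compare. For the 2 chains of the GM-CSF receptor, a Csf2rb UMI was found in 17.7% of KL cells with Csf2ra and 11.2% of those without, and in 9.34% and 10.5% of LTHSC-like, 16.3% and 15.4% of MPP-like and 31.4% and 26.2% of Mono-like cells. Shares within states thus rest on few cells where Csf1r is rare, depth per cell, which raises both shares, was not equalized, and a difference between states was not tested. A KL cell had UMIs of a median of 2 of the 9 receptors, and 6.45% of cells had none.

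The question of the study was whether housing alters gene expression in KL cells, and no receptor differed between CVT and SPF pools by the test used. Csf3r had the lowest p of the 9 and was 17.4 (pool 1), 14.9 (pool 2), 24.5 (pool 7) and 19.1 (pool 8) CPM in SPF pools and 12.7 (pool 3), 12.6 (pool 4), 17.9 (pool 5) and 16.0 (pool 6) in CVT pools. SPF pool 7 was the highest and CVT pools 3 and 4 the lowest. The groups overlapped over all 8 pools but not within pools 1 to 4 or within pools 5 to 8. How many of all genes were apart within both sets was not counted. The Csf3r log2 fold change of CVT over SPF was -0.31 (SE 0.17, 95% interval -0.68 to 0.065, edgeR adjusted p = 0.73). Its log2 ratio of means was -0.36 and -0.36 within the pool sets. Epor had the largest positive estimate, 0.26 (95% interval -0.21 to 0.72), and the others were -0.10 for Kit, 0.13 for Csf1r, -0.19 for Csf2ra, 0.16 for Csf2rb, -0.072 for Il6ra, -0.072 for Ifngr1 and 0.015 for Tnfrsf1a. With edgeR, 0 of 9 receptors passed an adjusted p of 0.05, 0 of 9 had an unadjusted p under 0.05 (1 without CVT pool 5 and 2 without SPF pool 2), and DESeq2 also called 0 of 9. That fit ignores the pool sets, and with pool set as a block edgeR called 0 of 9 again but had 3 at an unadjusted p under 0.05, beside 1777 of all genes: Csf3r (-0.29, adjusted p = 0.235), Epor (0.24, adjusted p = 0.352) and Csf2rb (0.17, adjusted p = 0.303). Of all 13092 genes tested without the block, edgeR called 0 (0.0%), 921 had an unadjusted p under 0.05, and DESeq2 called 15. The CVT and SPF pools did not overlap in 0 of 9 receptors, beside 806 of all genes (6.16%). In the sum over KL cells, fewer cells of a type and less RNA per cell cannot be told apart, and the mix of states differed in part: GMP-like cells were 3.72 ± 1.02% of CVT and 2.43 ± 0.444% of SPF cells (SD, n = 4), NeuP-like 6.05 ± 1.30% and 3.74 ± 0.647%, LMPP-like 7.39 ± 0.835% and 9.76 ± 1.48%, and Mono-like 16.7 ± 3.33% and 13.2 ± 1.48%. LTHSC-like cells were 8.39 ± 1.61% and 11 ± 2.98%, a gap within the larger SD, as were those of Granulocyte-like and Ery-like cells. These SDs span both pool sets, and Ery-like cells were 15.8 ± 3.57% of CVT and 12.9 ± 3.71% of SPF cells. Within pools 1 to 4, and within pools 5 to 8, both CVT pools had a higher Ery-like share than both SPF pools. With every pool given the same mix of states, the log2 ratio of means was -0.23 for Csf3r (-0.36 as sampled) and 0.085 for Epor (0.20), and that of Csf1r changed sign to -0.085 from 0.071. The Ifngr1 estimate was 0.0009 without SPF pool 1, and that of Tnfrsf1a turned negative without CVT pool 4 (-0.030), SPF pool 1 (-0.021) or SPF pool 2 (-0.0074).

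**Figure D3:**
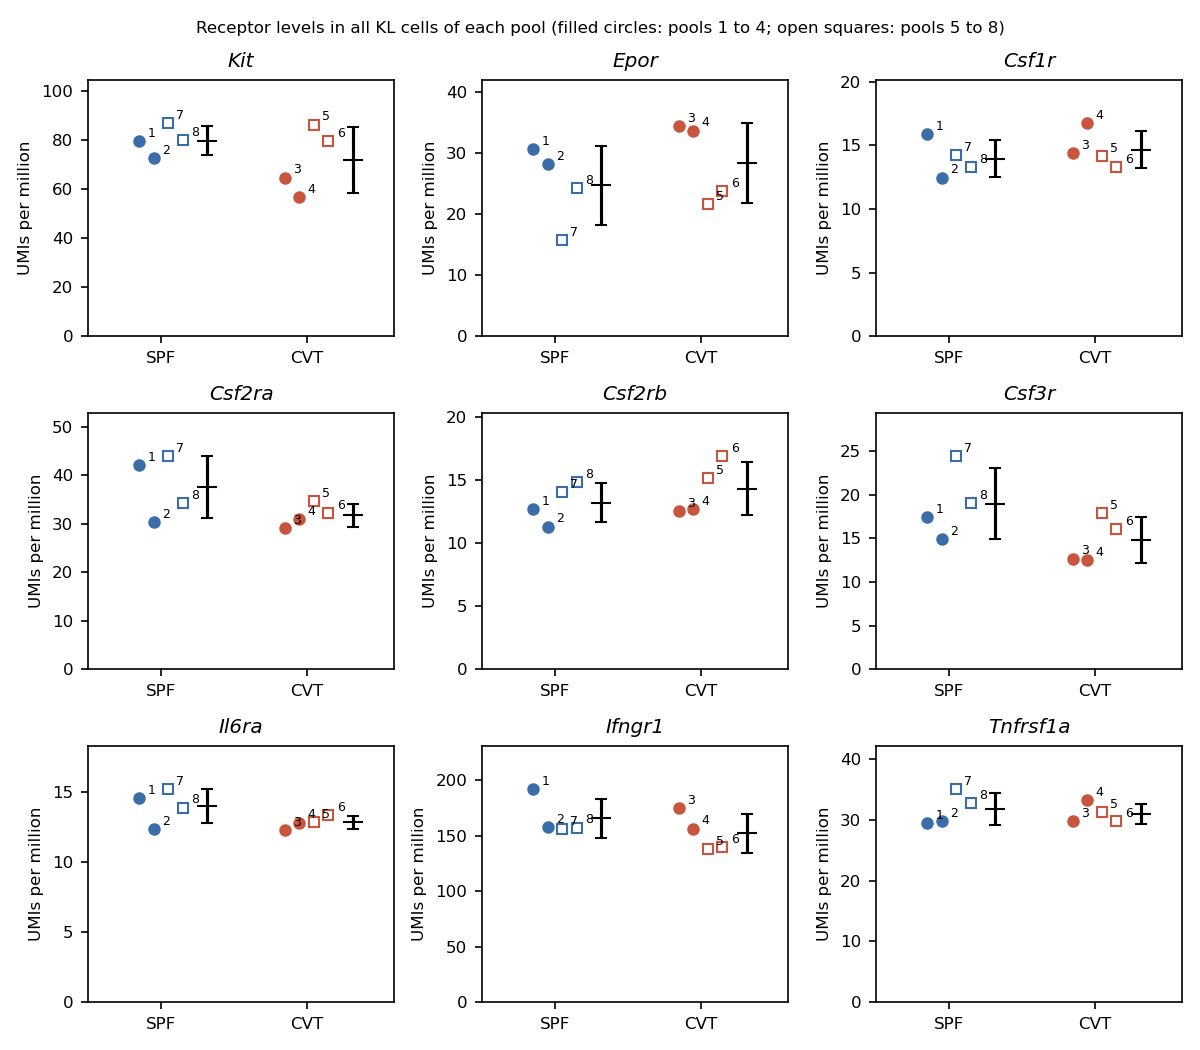
CPM of each receptor in all KL cells (vertical axis, linear from 0) for 4 SPF and 4 CVT pools, labelled by pool number, with filled circles for pools 1 to 4, open squares for pools 5 to 8, and the group mean ± 1 SD at the right of each group. CVT and SPF pools overlap for every receptor, and for Epor pools 1 to 4 (28.2 to 34.4) lie above pools 5 to 8 (15.8 to 24.3).

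Within states, housing was tested for the receptors that passed the filter on low counts, which was 82 of 99 receptor-state pairs. In LMPP-like cells the beta chain Csf2rb was higher and Csf3r lower in all CVT pools. Csf2rb there was 7.44 (pool 1), 10.4 (pool 2), 14.4 (pool 7) and 15.9 (pool 8) CPM in SPF pools and 18.7 (pool 3), 17.3 (pool 4), 20.1 (pool 5) and 21.3 (pool 6) in CVT pools, on 9 to 56 UMIs per pool. Csf3r was 42.1 (pool 1), 32.1 (pool 2), 41.1 (pool 7) and 32.5 (pool 8) in SPF pools and 27.1 (pool 3), 18.5 (pool 4), 29.0 (pool 5) and 24.2 (pool 6) in CVT pools. Neither gene's groups overlapped, which held for 2 of 8 receptors tested in this state and 4.21% of all genes tested there. The log2 fold changes were 0.68 (SE 0.19, edgeR adjusted p = 0.666) and -0.48 (SE 0.15, adjusted p = 0.686), and neither passed. Over all cells of a group together, with no spread between pools, cluster 10 held 36.8% of CVT and 47.0% of SPF LMPP-like cells. Cluster 10 had 39.8 ± 14.0 CPM of Csf3r and 18.9 ± 5.77 of Csf2rb, against 25.7 ± 5.80 and 14.3 ± 5.12 in cluster 5. Whether this makeup differed between groups, and its part in either difference, was not tested.

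Ifngr1 was lower in all CVT pools in CMP-like cells, with 492 (pool 1), 379 (pool 2), 396 (pool 7) and 403 (pool 8) CPM in SPF pools and 373 (pool 3), 312 (pool 4), 303 (pool 5) and 361 (pool 6) in CVT pools. SPF pool 1 was the highest, and the groups did not overlap, as for 1 of 6 receptors and 3.05% of all genes tested in that state. The log2 fold change was -0.26 (SE 0.081, edgeR adjusted p = 1). In MkP-like cells Ifngr1 was 154 (pool 1), 119.5 (pool 2), 109 (pool 7) and 104 (pool 8) in SPF pools and 105 (pool 3), 98.7 (pool 4), 83.7 (pool 5) and 84.5 (pool 6) in CVT pools, which overlapped only through SPF pool 8 and CVT pool 3 (-0.33, edgeR adjusted p = 1). GMP-like cells went the other way, with 77.8 (pool 1), 100.4 (pool 2), 89.7 (pool 7) and 106 (pool 8) in SPF and 135 (pool 3), 121 (pool 4), 108 (pool 5) and 99.3 (pool 6) in CVT pools (0.32, edgeR adjusted p = 0.42). None of these passed the adjusted threshold, and a difference in the housing effect between states was not tested.

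Over the 11 states, edgeR and DESeq2 each called 0 of the receptor-state pairs. At an unadjusted p under 0.05 edgeR gave 14 of 82 pairs (17.1%), 6 higher and 8 lower in CVT, beside 5183 of 99200 tests over all genes and states (5.22%), and DESeq2 gave 11 of its 99 pairs, beside 2974 of 167584 tests (1.77%). With a pool left out, the edgeR count ran from 7 of 83 pairs (SPF pool 1) to 16 of 82 (SPF pool 2), beside 4.15% and 5.07% of all tests. It was 9 of 83 without SPF pool 7 (4.96% of all tests) and 9 of 82 without CVT pool 6 (5.33%). With pool set as a block it was 15 of 82 (7.01%), and with no filter 19 of 99 (5.18%). The pairs share pools, and related states share genes' behavior, so they are not independent. Beside Csf2rb, Csf3r and Ifngr1 above, the pairs higher in CVT were Csf2rb in LTHSC-like (0.44) and BaMast-like cells (0.47) and Csf1r in LMPP-like (0.49) and Ery-like cells (0.77), the last at 1.04 ± 0.353 CPM, a level taken as background. Those lower in CVT were Csf3r (-0.36) and Csf2ra (-0.35) in Granulocyte-like, Kit (-0.25) and Ifngr1 (-0.15) in Ery-like and Epor in BaMast-like cells (-0.62), as log2 fold changes. The largest share of Ery-like cells was in cluster 8 in CVT mice (30.1%) and in cluster 7 in SPF mice (36.2%), and these clusters differ in Kit and Ifngr1 as given above. Of Granulocyte-like cells, cluster 20 held 43.3% in CVT and 53.2% in SPF mice and cluster 28 19.4% and 12.9%, with 120.2 ± 20.4 and 52.5 ± 19.3 CPM of Csf2ra and 51.2 ± 12.8 and 83.8 ± 41.0 of Csf3r. Of LTHSC-like cells, cluster 1 held 73.0% and 61.5% and cluster 13 27.0% and 38.5%, with 18.2 ± 4.41 and 12.5 ± 4.93 CPM of Csf2rb. In Mono-like cells cluster 22, with higher means than the other 3 Mono-like clusters for every receptor but Kit, held 9.42% of CVT and 19.2% of SPF cells, beside log2 fold changes of -0.16 for Csf1r (edgeR adjusted p = 0.921) and -0.35 for Csf2ra (adjusted p = 0.875). These cluster shares are over all cells of a group together, with no spread between pools. Whether the makeup of states differed between groups, and its part in the receptor differences, was not tested. Over all genes, edgeR called 8 in GMP-like (0.105%) and 2 in BaMast-like cells (0.029%) and 0 (0.0%) in each of the other 9 states, and DESeq2 called 8 over the 11 states. The count of 10 was 5 without CVT pool 3, 28 without CVT pool 5, 46 without CVT pool 6, 5 without SPF pool 1 and 3 without SPF pool 2. In the 9 states other than LMPP-like and CMP-like cells, 0 receptors had CVT and SPF pools apart, beside 3.76% of all genes in LTHSC-like, 4.06% in MPP-like, 2.76% in MkP-like, 2.89% in Ery-like, 4.2% in BaMast-like, 4.54% in GMP-like, 3.61% in NeuP-like, 2.73% in Granulocyte-like and 4.12% in Mono-like cells.

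**Figure D4:**
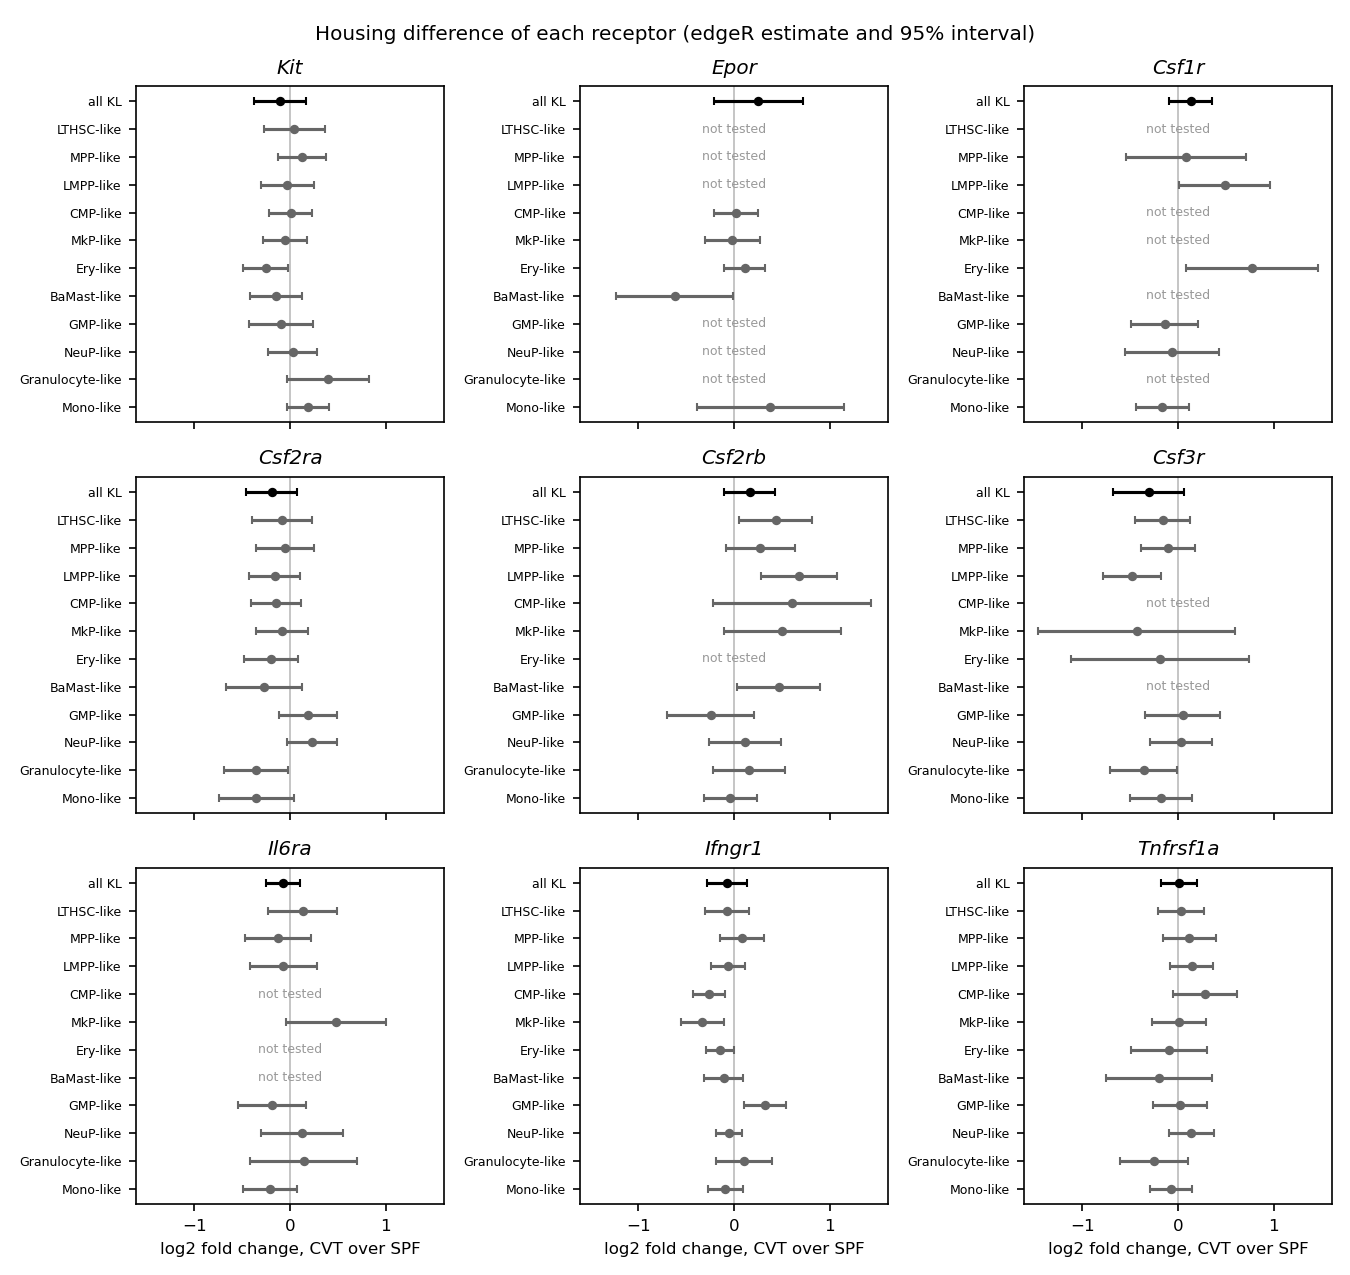
Log2 fold change of CVT over SPF (horizontal axis) for each receptor in all KL cells and in 11 states (vertical axis), as the edgeR estimate with its 95% interval over 8 pools. Most intervals cross 0, and the interval of Csf2rb in LMPP-like cells, 0.28 to 1.07, lies above it without passing the adjusted threshold.

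The pool sets were compared because the same housing groups were collected in each, and here receptors did differ. Epor was 30.7 (pool 1), 28.2 (pool 2), 34.4 (pool 3) and 33.7 (pool 4) CPM in pools 1 to 4 and 21.7 (pool 5), 23.8 (pool 6), 15.8 (pool 7) and 24.3 (pool 8) in pools 5 to 8, with no overlap. Its log2 fold change of pools 5 to 8 over pools 1 to 4, fitted with housing, was -0.55 (SE 0.10, edgeR adjusted p = 0.0135). Kit was 79.8 (pool 1), 72.7 (pool 2), 64.8 (pool 3) and 56.8 (pool 4) CPM and 86.5 (pool 5), 79.9 (pool 6), 87.2 (pool 7) and 80.0 (pool 8), with pools 5 to 8 all higher but pool 1 close below pools 6 and 8. Csf2rb was 12.7 (pool 1), 11.3 (pool 2), 12.5 (pool 3) and 12.7 (pool 4) CPM and 15.2 (pool 5), 16.9 (pool 6), 14.0 (pool 7) and 14.8 (pool 8), with pools 5 to 8 all higher. Csf3r, given by pool above, was also higher in pools 5 to 8, apart from pool 1, which lay above pool 6. How many of all genes had the 2 pool sets apart was not counted, so such separation is not particular to these receptors. The log2 fold changes were 0.31 for Kit (SE 0.069, edgeR adjusted p = 0.0191), 0.32 for Csf2rb (SE 0.061, adjusted p = 0.0136) and 0.43 for Csf3r (SE 0.087, adjusted p = 0.0154). Ifngr1 (-0.20) missed the threshold in edgeR (adjusted p = 0.0518) and passed it in DESeq2 (adjusted p = 0.0249), without the filter (0.0321), and without SPF pool 2 (0.0261) or SPF pool 8 (0.0388). In all, 4 of 9 receptors passed, 3 higher and 1 lower in pools 5 to 8, beside 2646 of all 13092 genes (20.2%). DESeq2 called 2657 genes.

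The calls rest on few pools. Without CVT pool 3 the Kit adjusted p was 0.0667, without pool 4 0.061, without pool 5 0.0684, without pool 6 0.0623 and without SPF pool 7 0.0548 in edgeR. The Epor adjusted p was 0.0569 without CVT pool 3 and 0.0562 without pool 5, that of Csf2rb 0.0582 without pool 3 and 0.0573 without pool 6, and that of Csf3r 0.0582, 0.0511 and 0.0588 without pools 3, 4 and 5. The count over all genes moved likewise, from 2646 to 82 without CVT pool 3, 354 without pool 4, 221 without pool 5, 266 without pool 6, 1424 without SPF pool 2, 754 without SPF pool 7 and 4510 without SPF pool 8. The direction of the 4 receptors was the same in each of these fits. The mix of states differed between sets: Ery-like cells were 17.3 ± 1.97% (SD, n = 4) of cells in pools 1 to 4 and 11.4 ± 2.07% in pools 5 to 8, Granulocyte-like 3.53 ± 1.87% and 8.13 ± 2.95%, and MPP-like 5.88 ± 1.64% and 9.99 ± 0.589%. LTHSC-like cells were 8.36 ± 1.41% and 11.04 ± 3.03%, a gap within the larger SD. With the same mix of states in every pool, the log2 ratio of set means was -0.18 for Epor (-0.57 as sampled), 0.079 for Csf2rb (0.31), 0.10 for Csf3r (0.43) and 0.25 for Kit (0.28). Of the 4, only Kit kept most of its difference, as the plot of pool-set ratios shows.

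**Figure D5:**
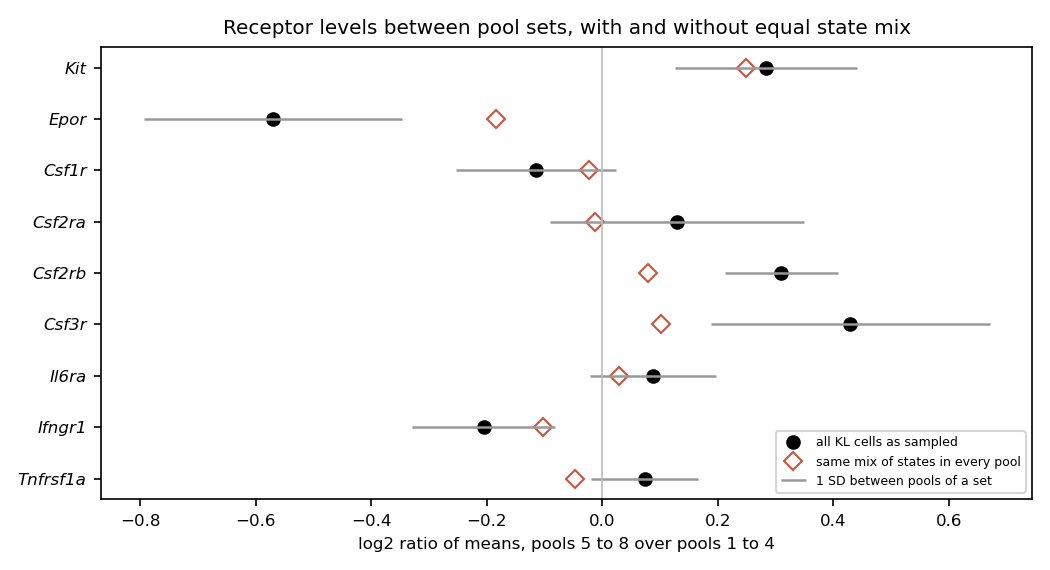
Log2 ratio of mean CPM in pools 5 to 8 over pools 1 to 4 (horizontal axis) for each receptor (vertical axis), as filled circles for KL cells as sampled, with 1 SD between pools of a set, and open diamonds with the same mix of states in every pool. Epor moves from -0.57 to -0.18 and Kit from 0.28 to 0.25.

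Whether the housing difference itself changed between pool sets was tested with an interaction term. For Kit the log2 ratio of CVT over SPF means was -0.33 in pools 1 to 4 and -0.0077 in pools 5 to 8 (edgeR interaction, adjusted p = 0.542). For Tnfrsf1a it was 0.090 and -0.15 (edgeR interaction, adjusted p = 0.534). Neither passed, and edgeR called 0 of 9 receptors with 2 at an unadjusted p under 0.05, while DESeq2 called 0 of 9. Of all 13092 genes edgeR called 0 (0.0%), 1188 had an unadjusted p under 0.05, and DESeq2 called 38 of the 3533 genes to which it gave an adjusted p.

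Other genes of these pathways were taken from lists of ligands, partner chains, further receptors, signaling molecules, inhibitors and targets. Between housing groups in KL cells, edgeR called 0 of 51 further cytokine receptors, 0 of 5 partner chains, 0 of 3 ligands, 0 of 11 JAK and STAT genes, 0 of 14 feedback inhibitors, 0 of 15 adaptors and 0 of 10 STAT and NF-kappaB target genes tested, as for all genes. At an unadjusted p under 0.05 these lists had 8, 0, 0, 1, 1, 1 and 1 genes, beside 921 of all 13092, and DESeq2 calls were counted over all genes only, 15 as given above. Median log2 fold changes were -0.15 for further receptors, -0.12 for JAK and STAT genes, -0.15 for targets, 0.042 for partner chains, -0.11 for ligands, -0.046 for feedback inhibitors and -0.060 for adaptors, beside -0.072 for the 9 receptors and -0.012 for all genes. Within the 11 states and in the interaction, edgeR called 0 genes of these lists. Between pool sets, 19 of 51 further receptors were higher and 0 lower in pools 5 to 8, beside 20.2% of all genes called in either direction. Among them Cxcr2, a chemokine receptor of neutrophils, was higher by 0.95 (log2 fold change, edgeR adjusted p = 0.0221), Cxcr4, which holds cells in the marrow, by 0.50 (adjusted p = 0.0272) and the activin receptor Acvr1b by 0.86 (adjusted p = 0.00621). Further ones were Il13ra1 (1.80), Il2rb (1.69), Il18rap (0.89), Fas (0.63), Tie1 (0.58), Il1r1 (0.56), Pdgfrb (0.49), Tgfbr2 (0.44), Bmpr2 (0.41), Tnfrsf13c (0.41), Tnfrsf18 (0.40), Il2rg (0.35), Tgfbr1 (0.33), Igf1r (0.32) and Crlf2 (0.17). With the same mix of states in every pool, the log2 ratio of set means was 0.28 for Cxcr2 (0.88 as sampled), 0.34 for Cxcr4 (0.49) and 0.58 for Acvr1b (0.83). Its median over the 19 was 0.28, against 0.49 as sampled, and all 19 were nearer 0, of which 8 lost more than they kept and Crlf2 changed sign to -0.0069. Among JAK and STAT genes 4 of 11 were higher and 0 lower, namely Jak2, which Epor uses (0.33), Tyk2 (0.27), Stat5b (0.26) and Stat3 (0.19). Of 14 feedback inhibitors 4 were higher and 0 lower: Socs1 (0.47), Socs2 (0.49), Cbl (0.31) and Sh2b3 (0.23). Of 15 adaptors Pik3cg (0.36), Pik3cd (0.32), Inpp5d (0.26) and Gab2 (0.34) were higher and Traf2 (-0.26), which acts below the tumor necrosis factor receptors, was lower. Of 10 target genes Id1 (0.69) and Pim2 (0.46) were higher. The background for each of these lists is the same 20.2% of all genes called, and the count of target genes is near it. With the same mix of states, the median log2 ratio was 0.24 for the 4 JAK and STAT genes (0.25 as sampled), 0.13 for the 4 inhibitors (0.38), 0.21 for the 5 adaptors (0.30) and 0.22 for the 2 targets (0.55), but Stat3 changed sign to -0.030 from 0.18. Median log2 fold changes between pool sets were 0.33 for further receptors, 0.19 for JAK and STAT genes, 0.17 for feedback inhibitors, 0.049 for adaptors and 0.18 for targets, beside 0.095 for the 9 receptors and 0.010 for all genes. None of 5 partner chains and 3 ligands was called between the sets by edgeR, with 3 and 1 at an unadjusted p under 0.05, beside 4958 of all 13092 genes, and these counts share the dependence on single pools given above.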

How the data were processed

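The deposited values are UMI counts per gene and cell, made by the authors with Cell Ranger (version not given in the sources used here; build mm9 in the submitters' processing notes), all 8 pools in 1 table. No cell was removed. Clustering used 1000 variable genes, 30 principal components, 30 neighbors and Leiden resolution 2 (numpy 2.4.6, scikit-learn 1.9.0, leidenalg 0.10.2, Python 3.11.15) without the receptor lists. Marker genes were listed beforehand, 190 of 196 of them in the table, and the rule that turns them into names (at least 3 markers among the 100 genes leading a cluster and 1 among the first 10) was chosen after the clusters were seen, among several compared. Scrublet, run through scanpy 1.11.5, marked 27 cells (0.0903%), under 0.5%, so it has not worked and doublets stay in. UMIs were summed per pool, or per pool and state where each pool had at least 20 cells, and tested with edgeR 4.0.16 (R 4.3.3; quasi-likelihood test, TMM, filterByExpr, Benjamini-Hochberg over all genes tested), with DESeq2 1.42.0 as an alternative. The edgeR step was tested on simulated data. A step between neighboring states is beyond its spread when the mean paired difference over 8 pools exceeds the SD of that difference. Thinned shares draw from every cell as many UMIs as the shallowest cell has. Correlations use log2(CPM + 10) over clusters of at least 100 cells and genes of at least 20 CPM in a cluster. Named were the 9 receptors, partner chains, list genes with an adjusted p under 0.05 (1 of them is not reported here) and, for each receptor, the 3 genes of highest correlation; further names in the text were chosen after their values were seen. Receptors and lists were chosen with earlier results of these data known. Alternatives covered normalization, filter, tool, pool set as a block, leaving out each pool, cell filter, thinning, equal state mix and clustering settings. Protein sequences were not used here.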

Additional observations from a re-analysis of the deposited data

Results flagged for a closer look

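Csf1r in Mono-like cells was 55.0 CPM in CVT pool 5, apart from the other CVT pools at 42.5 to 44.2. Ifngr1 in all KL cells was 192 CPM in SPF pool 1, apart from the other SPF pools at 156 to 158. In each case the gap to the nearest pool of the group took up more of the group's range than Dixon's critical value for 4 values (ratios 0.869 and 0.959). Of 36 groups tested 2 stood out this way, and chance alone does so in about 1 in 20 groups. No explanation was tested.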

How the results depend on the processing

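Housing calls in KL cells were 15 with DESeq2 and 4 with pool set as a block, against 0 with edgeR, and stayed at 0 when any pool was left out. Over the 11 states the 10 calls became 345 with no filter on low counts, 49 with pool set as a block and 3 to 46 with a pool left out. The 2646 calls between pool sets ranged from 82 to 4510 with a pool left out, and the interaction had 38 calls with DESeq2, of 3533 genes, against 0. No receptor was called between housing groups under any alternative, in KL cells or in a state. No direction changed in the 168 alternatives of the 14 receptor-state pairs. Those pairs were picked by an edgeR unadjusted p under 0.05 in the same pools, and clustering was not varied for them. Their stable directions are therefore no support for these differences. In KL cells the sign of small log2 fold changes was not stable: Csf1r was -0.085 with states weighted alike, and Tnfrsf1a -0.016 so weighted (already -0.035 as sampled in that ratio of means, against an edgeR estimate of 0.015), -0.0070 with cells thinned and -0.030 to 0.079 with a pool left out. Ifngr1 was -0.13 to 0.0009 with a pool left out. Between pool sets, with states weighted alike, Csf2ra was -0.013 and Tnfrsf1a -0.048. The level of each receptor in its highest state, as log2 over its KL level (Kit 1.06, Epor 1.64, Csf1r 1.72, Csf2ra 1.49, Csf2rb 1.83, Csf3r 1.66, Il6ra 1.24, Ifngr1 1.22, Tnfrsf1a 0.83), moved beyond the spread of pools as follows. With cells thinned it was 0.84 for Kit, 1.90 for Epor, 2.17 for Csf1r and 1.43 for Il6ra, and as a mean over cells 0.83, 1.92, 2.14 and 1.45. At resolution 1 it was 1.38 for Ifngr1 and 0.49 for Tnfrsf1a, and for Ifngr1 1.02 with 50 principal components and 0.91 with 2000 variable genes. As UMIs per cell, which follow depth, it was 0.30 for Kit, 2.43 for Epor, 2.17 for Csf1r, 1.07 for Csf2ra, 1.13 for Csf2rb, 1.23 for Csf3r, 1.68 for Il6ra, 0.28 for Ifngr1 and 1.14 for Tnfrsf1a. The highest state of Kit was CMP-like at resolution 1. The causes were not tested. UMIs per cell, the pool-set values with states weighted alike or with a pool left out, leaving a pool out of the state levels, and DESeq2 for the interaction were chosen after seeing the data. The labels give each pool its own mice, and no replicate number is shared between groups.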
